A study of Homo sapiens with 12 samples.

Results

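The genes described here are NFE2L2, which encodes the transcription factor NRF2, its inhibitor KEAP1, and 8 core NRF2 target genes, HMOX1, NQO1, GCLM, GCLC, TXNRD1, SRXN1, OSGIN1 and PIR. They were taken by gene symbol from the expression tables, which makes 10 of the 20003 genes used, and each symbol was found in every sample. The samples were NB4, which derives from an acute promyelocytic leukemia and carries PML-RARα, and Kasumi-1, an AML-M2 cell line with the AML1-ETO fusion, each cultured as DMSO controls (n = 3) or with 1 μM OGP46 (n = 3). OGP46 is a kaurene diterpenoid that the study prepared from oridonin. The sample labels and the sequencing methods give an incubation of 48 h, whereas a figure legend of the study gives a longer one. Both lines are long-cultured single leukemias with their fusion gene in controls and treated cells alike. All 12 libraries were made from poly(A) mRNA with a stranded kit, and the deposited values are FPKM, the fragments of a gene divided by its exon length and by the fragments mapped in the library.

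NRF2 is a stress-responsive activator of transcription. In resting cells KEAP1 binds NRF2 and presents it to the CUL3 ubiquitin ligase, which leads to its degradation. Electrophiles and oxidants modify cysteines of KEAP1, NRF2 then accumulates, pairs with a small MAF protein and binds antioxidant response elements near genes of glutathione synthesis, thioredoxin recycling, quinone reduction, and heme breakdown. KEAP1 acts on the NRF2 protein, which was not measured here.

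FPKM summed to between 248207 and 310262 per sample, and between 9339 and 9746 genes per sample reached 1 FPKM. In NB4 the sums were between 248207 and 256268 in controls and between 263341 and 291523 with OGP46, without overlap. In Kasumi-1 the sums were between 279879 and 310262 in controls and between 279802 and 296455 with OGP46, which overlap. Read counts were not used here, so sequencing depth is unknown, and the error of each value is the spread between the 3 samples of its group. A legend of the study describes its sequencing figures as representative of independent experiments, but the labels do not tie each library to a separate culture, so the p-values measure only the spread between these samples, which may be technical. In such bulk samples, a change in the share of cells of a type cannot be told apart from a change in RNA per cell. The Kasumi-1 markers RUNX1T1, CD34, KIT, POU4F1 and TRH summed to between 263 and 299 FPKM in Kasumi-1 controls and between 0.563 and 3.599 FPKM in NB4 controls, where the highest sum, in replicate 3, came with 1.31 FPKM of CD34 and 1.22 FPKM of KIT. The promyelocyte genes listed for NB4 did not set this line apart, since MPO and ELANE were higher in Kasumi-1, and the fusion transcripts cannot be read from gene-level values.

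Before the levels, the letters of the antioxidant response element are shown for the genes that carry them near their annotated start. The promoter windows of 300 bases, from 250 before to 50 after the start, were taken from RefSeq (GRCh38.p14), which gave 12 windows for 9 of the 10 genes, and HMOX1 has no entry in that table. The core letters TGACNNNGC, searched on both strands, occurred in 4 of these 9 genes (GCLM, TXNRD1, KEAP1 and PIR), or 5 of 12 windows, against 13.3% of all 35116 promoter windows. A match is a description of letters and not a site that was shown to be bound. Each sequence reads 5′ to 3′ on the gene's strand, with the matched letters in capitals, and all 4 matches shown lie on the opposite strand, where they appear reversed and complemented.
GCLM, chr1:93909446-93909474, minus strand: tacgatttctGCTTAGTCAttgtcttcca
TXNRD1, chr12:104286920-104286948, plus strand: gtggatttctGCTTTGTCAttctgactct
KEAP1, chr19:10502784-10502812, minus strand: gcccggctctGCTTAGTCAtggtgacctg
PIR, chrX:15493289-15493317, minus strand: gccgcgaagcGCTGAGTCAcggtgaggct

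The first matched base lay at -34 in GCLM, at -102 in the second TXNRD1 promoter and at -31 in the KEAP1 promoter shown, counted from the annotated start, and at 27, after the start, in PIR. In GENCODE release 29 all 4 lie within annotated exons of their own gene. GCLM and KEAP1 had the same 9 matched letters. Over the 29 bases shown, the GCLM window was identical to that of TXNRD1 at 19 positions, to that of KEAP1 at 17 and to that of PIR at 13. The fixed letters of the search pattern are the same in every window in advance, so these counts are no sign of a longer shared element. TXNRD1 and KEAP1 each had further matches, at -99 and -8 in the first TXNRD1 promoter and at -54 in the same KEAP1 promoter. The related AP-1 letters TGACTCA, also searched on both strands, occurred in the windows of OSGIN1 and PIR and in 4.95% of all windows, and the match in PIR overlapped its antioxidant response element letters. No match was found within these windows for NQO1, GCLC, SRXN1, OSGIN1 and NFE2L2 with TGACNNNGC, which says nothing of regions outside them.

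**Figure D1:**
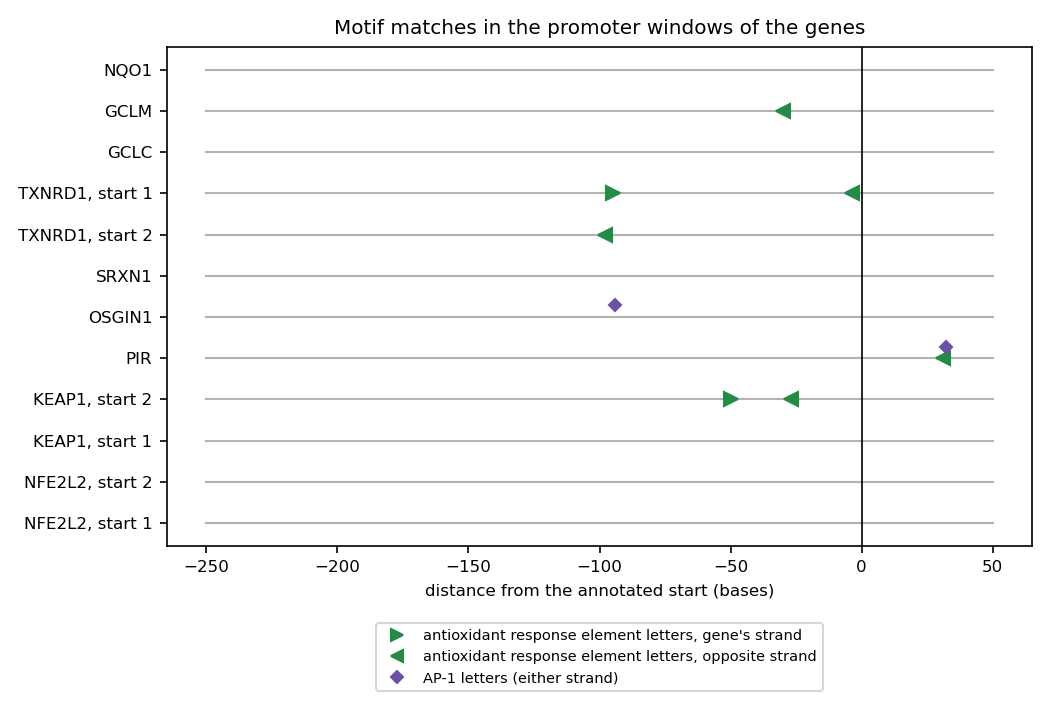
Positions of the antioxidant response element letters (triangles, pointing right on the gene's strand and left on the opposite strand) and of the AP-1 letters (diamonds) in bases from the annotated start, in 12 RefSeq promoter windows of 9 genes. Matches lie within about 100 bases before the start in GCLM, TXNRD1 and KEAP1, and after the start in PIR.

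The first comparison asks how these genes changed in NB4 cells with OGP46. HMOX1, NQO1, GCLM and PIR rose, by between 1.62-fold and 5.08-fold, which is 4 of the 10 genes, whereas 1.45% of the 11750 genes tested were called higher. All 10 genes passed the minimum mean of 0.1 FPKM. TXNRD1 and SRXN1 were higher at a smaller size, and the transcripts of KEAP1 and NFE2L2 themselves and of GCLC did not pass the test. A gene was called when its Benjamini-Hochberg adjusted p from limma was below 0.05 and its log2 fold change of FPKM + 0.1 was at least 0.58 in size, the threshold of the study. None of the 10 genes was called lower by limma, where 0.111% of all genes tested were, nor with the replicate number as a block, where 1.15% were. Likewise 0 of the 10 were lower at an unadjusted p below 0.05, against 1.61% of all genes tested.

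HMOX1 (chr22:35381096-35394207), the inducible heme oxygenase that opens heme and releases iron, biliverdin, and carbon monoxide, had 6.87, 3.03 and 6.22 FPKM in NB4 controls 1 to 3. With OGP46 it had 42.9, 14.2 and 29.3 FPKM. The lowest treated sample lay above the highest control, and replicate 2 was the lowest of its group on both sides. The log2 fold change was 2.34 (SE 0.42, adjusted p = 0.0375, limma). Set against the same-numbered control, the FPKM ratio was 6.25, 4.68 and 4.70.

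NQO1 (chr16:69709401-69726560), a quinone reductase, had 43.5, 31.0 and 36.5 FPKM in NB4 controls and 86.5, 62.3 and 74.5 FPKM with OGP46. Replicate 2 was again the lowest on both sides, and the groups did not overlap. The log2 fold change was 1.01 (SE 0.15, adjusted p = 0.0299, limma). The pairwise ratios of NQO1 lay close together, between 1.99 and 2.04.

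The subunits of glutamate-cysteine ligase, an enzyme of glutathione synthesis, were not called alike, and no test compared their changes. GCLM (chr1:93885199-93909430), the modifier subunit of glutamate-cysteine ligase, had 5.21, 4.35 and 4.60 FPKM in NB4 controls and 8.31, 6.81 and 8.02 FPKM with OGP46. Its groups did not overlap and its log2 fold change was 0.70 (SE 0.12, adjusted p = 0.0335, limma). GCLC (chr6:53497341-53545101), the catalytic subunit of the same enzyme, had 7.25, 7.73 and 6.13 FPKM in controls and 7.72, 8.38 and 7.86 FPKM with OGP46, so that the groups overlapped. The log2 fold change of GCLC was 0.19 (SE 0.11, adjusted p = 0.274, limma), and it became -0.03 when every sample was centred on its median.

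TXNRD1 (chr12:104215779-104350307), the cytosolic thioredoxin reductase, had 75.5, 73.2 and 78.7 FPKM in NB4 controls and 108, 96.7 and 117 FPKM with OGP46. SRXN1 (chr20:646615-653200), which repairs overoxidized peroxiredoxins, had 14.4, 13.1 and 13.3 FPKM in controls and 19.1, 19.4 and 20.5 FPKM with OGP46. In both genes the 3 treated samples lay above the 3 controls. Their adjusted p were 0.0354 for TXNRD1 and 0.0299 for SRXN1, but their log2 fold changes of 0.50 (SE 0.09) and 0.53 (SE 0.08) were below the size asked for.

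PIR (chrX:15384799-15493333), an iron-binding nuclear protein, had 2.22, 1.49 and 1.16 FPKM in NB4 controls and 3.68, 3.36 and 3.15 FPKM with OGP46, without overlap. Its log2 fold change was 1.07 (SE 0.21, adjusted p = 0.0450, limma). OSGIN1 (chr16:83953240-83966332), a growth inhibitor induced by oxidative stress, was low, with 0.637, 0.355 and 0.461 FPKM in controls and 1.89, 0.821 and 1.30 FPKM with OGP46. The OSGIN1 groups did not overlap, and its log2 fold change of 1.26 (SE 0.30) had an adjusted p of 0.0656. With the replicate number as a block, the SE of OSGIN1 fell to 0.16 and it was called (adjusted p = 0.000481, limma).

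KEAP1 (chr19:10486125-10503356) had 69.2, 74.8 and 72.9 FPKM in NB4 controls and 77.0, 78.9 and 77.2 FPKM with OGP46. The treated samples all lay above the controls, yet the log2 difference of 0.11 (SE 0.07, adjusted p = 0.320, limma) turned to -0.02 with TPM scaling and to -0.12 with median centring. NFE2L2 (chr2:177230303-177264727) had 25.1, 23.0 and 20.4 FPKM in controls and 26.6, 27.2 and 29.01 FPKM with OGP46. The NFE2L2 groups did not overlap and the log2 difference was 0.28 (SE 0.09, adjusted p = 0.110, limma). Its 95% interval, from 0.06 to 0.49, ends below the size asked for a call.

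**Figure D2:**
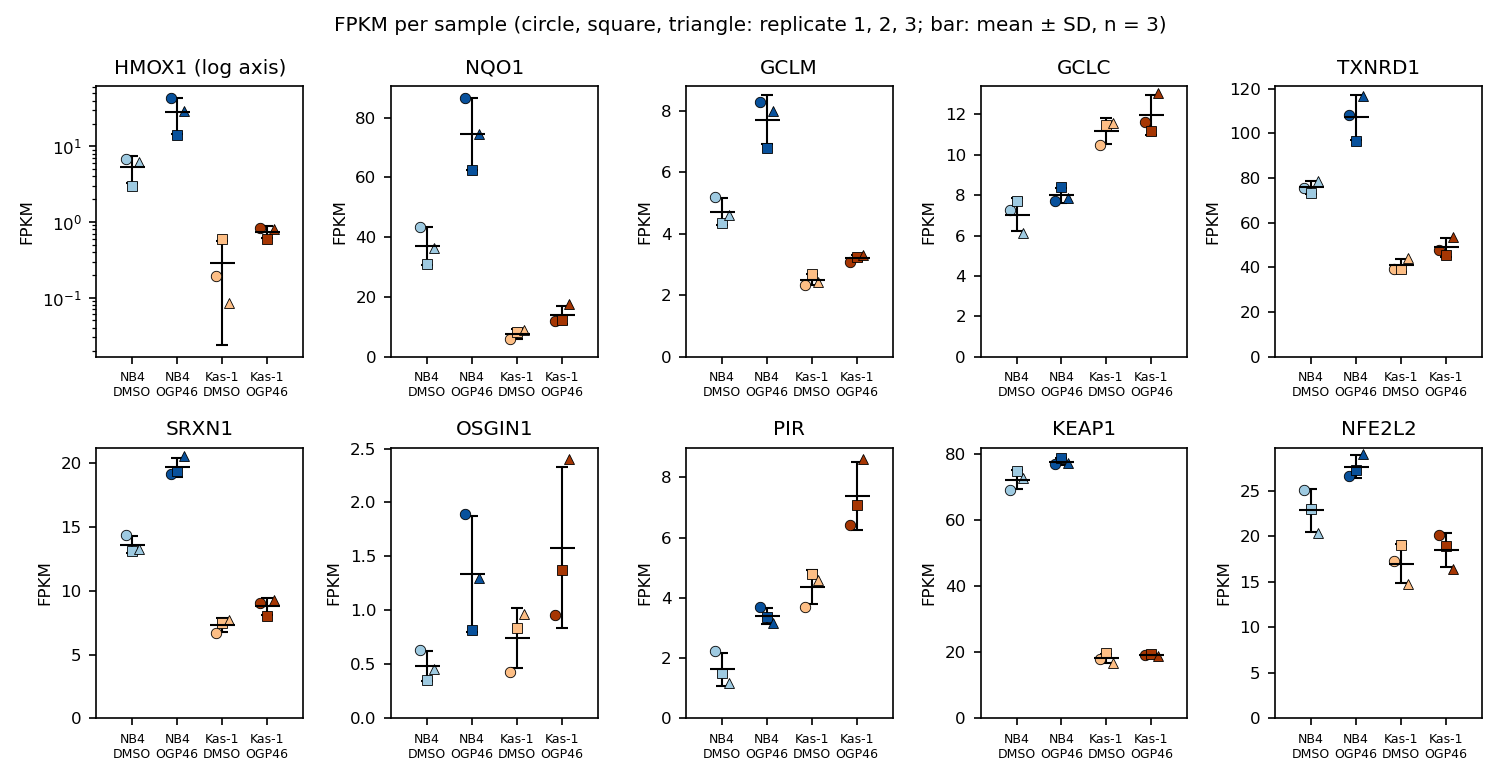
FPKM of each of the 10 genes in the 4 groups, with circles, squares and triangles for replicates 1, 2 and 3 and bars for the mean ± SD (n = 3). The HMOX1 axis is logarithmic and the others start at 0. HMOX1 runs from 0.0839 FPKM in a Kasumi-1 control to 42.9 FPKM in NB4 with OGP46, whereas KEAP1 stays between 69.2 and 78.9 FPKM in NB4.

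These NB4 differences stand on a table in which most genes were slightly higher with OGP46. Of the genes tested, 81.9% had a difference above 0 and the median log2 difference was 0.18, against 0.61 for the 10 genes. In 9 of the 10 genes the treated samples did not overlap the controls and lay above them, as in 32.7% of all genes tested, the exception being GCLC. After median centring, the log2 difference was 2.12 for HMOX1, 1.04 for OSGIN1, 0.85 for PIR, 0.79 for NQO1, 0.48 for GCLM, 0.31 for SRXN1, 0.28 for TXNRD1 and 0.06 for NFE2L2. With TPM scaling or median centring and no block, none of the 10 genes was called, and neither was any other gene (limma). With the block and median centring together, HMOX1, NQO1, OSGIN1 and PIR were called, and GCLM had an adjusted p of 0.00771 at a log2 difference below 0.58. The share of all genes called higher in that fit is not given here, so no excess is read from these calls.

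The calls of these genes in NB4 also depended on which samples were in the fit. Leaving out any 1 of the 3 controls, or OGP46 replicate 1 or 3, left 0 of the 10 genes called without the block, and leaving out OGP46 replicate 2 left 5 called. Calls moved over the whole table as well, with between 0 and 368 of all genes tested called higher in these fits. Across these 6 fits the log2 difference of HMOX1 stayed between 1.98 and 2.78 and its adjusted p between 0.0221 and 0.143. With the block, 5 of the 10 genes were called (HMOX1, NQO1, GCLM, OSGIN1 and PIR), against 5.06% of all genes tested, and 5 or 6 were called when any pair was left out. Between 532 and 708 of all genes tested were called higher with a pair left out. With 3 samples against 3, an exact permutation test of a single gene cannot give a two-sided p below 0.10.

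**Figure D3:**
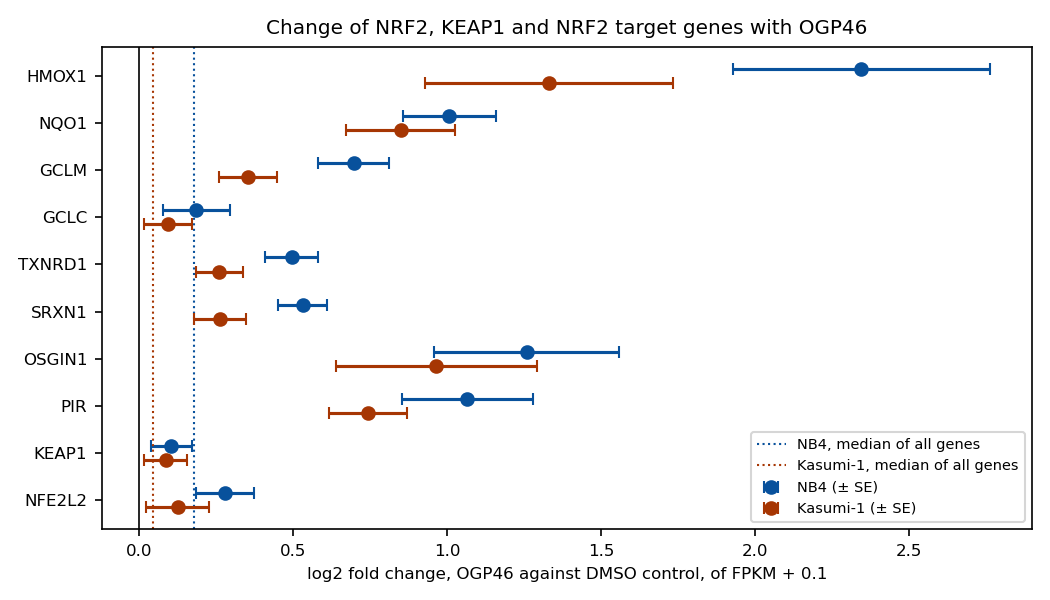
Log2 fold change of FPKM + 0.1 with OGP46 against DMSO control (± SE, limma without the block, n = 3 per group) in NB4 and Kasumi-1. Dotted lines mark the median of all genes tested, 0.18 in NB4 and 0.05 in Kasumi-1. GCLC, KEAP1 and NFE2L2 lie near these lines, and HMOX1 lies farthest to the right in both lines.

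In Kasumi-1 the same question gave smaller differences. None of the 10 genes was called in either direction without the block or scaling (limma), where 0.0169% of the 11835 genes tested were called higher and the same share lower. At an unadjusted p below 0.05, 7 of the 10 genes were higher and 0 lower, against 12.0% and 3.65% of all genes tested. With the block, NQO1, PIR and OSGIN1 rose, which is 3 of the 10 genes, against 0.27% of all genes tested, and 0 fell, against 0.346%. The median log2 difference was 0.31 for the 10 genes and 0.05 for all genes tested.

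NQO1 had 5.79, 8.35 and 8.96 FPKM in Kasumi-1 controls and 12.0, 12.3 and 17.5 FPKM with OGP46. Every treated sample lay above every control, and the log2 difference was 0.85 (SE 0.18, adjusted p = 0.0891, or 0.0042 with the block, limma). PIR had 3.70, 4.78 and 4.58 FPKM in controls and 6.41, 7.09 and 8.61 FPKM with OGP46. The PIR groups were also apart, with a log2 difference of 0.74 (SE 0.13, adjusted p = 0.0611, or 0.00425 with the block). With median centring and no block, PIR had a log2 difference of 0.68 (adjusted p = 0.0441, limma), past the threshold.

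OSGIN1 had 0.432, 0.833 and 0.962 FPKM in Kasumi-1 controls and 0.960, 1.38 and 2.41 FPKM with OGP46. The lowest treated sample lay just under the highest control, although each treated sample was above its same-numbered control, by 1.65-fold to 2.50-fold. The log2 difference was 0.96 (SE 0.33), with an adjusted p of 0.208, or 0.0109 with the block.

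HMOX1 was near the lower end of the table in Kasumi-1, with 0.196, 0.589 and 0.0839 FPKM in controls and 0.836, 0.595 and 0.813 FPKM with OGP46. The groups touched without overlapping, since control 2 had nearly the level of OGP46 replicate 2. The pairwise ratios of HMOX1 were 4.28, 1.01 and 9.70, and the log2 difference of 1.33 (SE 0.40) had an adjusted p of 0.170, or 0.0690 with the block. With pair 2 left out, the blocked log2 difference of HMOX1 was 1.99 (adjusted p = 0.0101, limma), past the threshold. With pair 3 left out it was 0.84 (adjusted p = 0.0109), also past it. With pair 1 left out the adjusted p of HMOX1 was 0.161, and it was not called.

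GCLM had 2.35, 2.70 and 2.45 FPKM in Kasumi-1 controls and 3.10, 3.26 and 3.30 FPKM with OGP46, without overlap. Its log2 difference was 0.35 (SE 0.09, adjusted p = 0.139). TXNRD1 went from 39.3, 39.3 and 44.1 FPKM to 47.8, 45.6 and 53.8 FPKM, and SRXN1 from 6.70, 7.51 and 7.71 FPKM to 9.06, 8.03 and 9.26 FPKM. Both genes had a log2 difference of 0.26, and the adjusted p was 0.164 for TXNRD1 and 0.186 for SRXN1. With the block TXNRD1 had an adjusted p of 0.0342 at a size below the threshold.

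GCLC, KEAP1 and NFE2L2 overlapped between Kasumi-1 controls and OGP46. GCLC lay between 10.5 and 11.6 FPKM in controls and between 11.2 and 13.1 FPKM with OGP46. KEAP1 lay between 16.7 and 19.7 FPKM in controls and between 18.8 and 19.6 FPKM with OGP46. NFE2L2 lay between 14.7 and 19.0 FPKM in controls and between 16.4 and 20.1 FPKM with OGP46. In each of these 3 genes, 1 of the 3 pairs was lower with OGP46, and the log2 differences were 0.09, 0.09 and 0.13 with adjusted p of 0.582, 0.573 and 0.578 (limma).

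**Figure D4:**
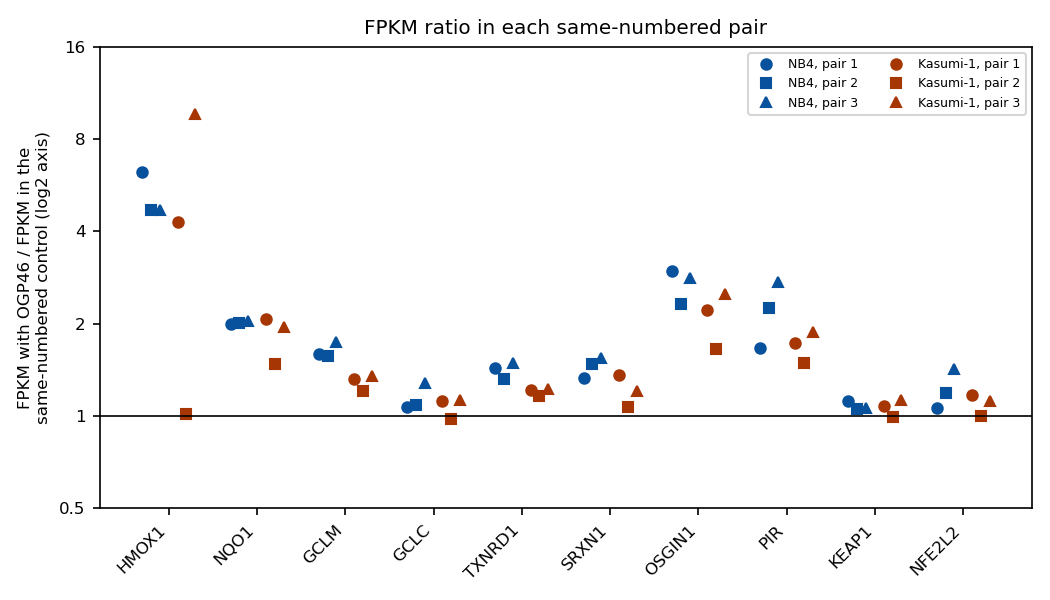
FPKM with OGP46 divided by FPKM in the same-numbered control, on a log2 axis, for 3 pairs of each line. The NQO1 ratios in NB4 coincide near 2.0, whereas the HMOX1 ratios in Kasumi-1 spread from 1.01 to 9.70.

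Whether the OGP46 difference itself was unlike between the lines was tested as an interaction over all 12 samples. None of the 10 genes was called (limma), in the fit without the block, where no gene of 12309 was called, nor with it, where 1.81% of the genes were called as more positive in NB4 and 0.114% as less. At an unadjusted p below 0.05, the difference was larger in NB4 for GCLM by 0.34 (log2, 95% interval 0.03 to 0.65) and for SRXN1 by 0.27 (0.03 to 0.51), with adjusted p of 0.420 and 0.414, a level that 9.95% of all genes tested reached in this direction. For HMOX1 the estimate was 1.01 with an interval from -0.44 to 2.47, and for NQO1 it was 0.16 with an interval from -0.43 to 0.75. These intervals include both no difference and sizable ones. Of all genes tested, 75.7% had an estimate above 0, and the median estimate was 0.12. With median centring the estimates of GCLM and SRXN1 were 0.19 and 0.12 (adjusted p = 0.827 and 0.861, limma). The estimates of GCLC (0.09) and KEAP1 (0.02) turned to -0.06 and -0.13 with median centring.

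The untreated lines were also compared. Between NB4 and Kasumi-1 controls, HMOX1, NQO1, KEAP1, TXNRD1, SRXN1 and GCLM were higher in NB4, and PIR and GCLC were lower. That is 6 genes higher and 2 lower among the 10, in a comparison in which 22.7% of 12302 genes tested were called higher and 29.7% lower. The log2 difference was 3.95 (SE 0.47, adjusted p = 5.79e-05) for HMOX1, 2.26 (SE 0.17) for NQO1 and 1.99 (SE 0.08) for KEAP1. TXNRD1, SRXN1 and GCLM all had 0.89. PIR had -1.41 (SE 0.21, adjusted p = 0.000292), and GCLC -0.67 (SE 0.10), which lay within 0.58 with TPM scaling or median centring. NFE2L2 was higher in NB4 by 0.43 (adjusted p = 0.00699), below the size asked for, but by 0.63 and past it with TPM scaling (adjusted p = 0.000205). OSGIN1 had -0.50 (adjusted p = 0.144). KEAP1 was thus at 72.3 ± 2.85 FPKM in NB4 controls and 18.1 ± 1.497 FPKM in Kasumi-1 controls (SD, n = 3), with every NB4 sample above every Kasumi-1 sample.

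FPKM are per exon length, so the levels can also be ordered between genes. In NB4 controls the order ran from TXNRD1 and KEAP1, whose ranges overlapped, over NQO1, NFE2L2 and SRXN1, each apart from the next, to GCLC, HMOX1 and GCLM, of which each neighbouring pair overlapped, and then PIR and OSGIN1. With OGP46, HMOX1 moved from the seventh to the fourth place in NB4, at 28.8 ± 14.4 FPKM, and its range overlapped that of NFE2L2 at 27.6 ± 1.25 FPKM (SD, n = 3). NQO1 kept the third place but then overlapped KEAP1. In Kasumi-1, TXNRD1 was the highest and HMOX1 the lowest in both groups, and NQO1 passed GCLC with OGP46, although their ranges overlapped.

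The genes most like each member over the 12 samples were found by the root mean square difference of log2(FPKM + 0.1), after the mean of each gene was subtracted, among the 9942 genes that averaged 1 FPKM or more. These likenesses are descriptions, and they take in the contrast between the lines as well as that with OGP46. TXNRD1 was most like SRXN1, at 0.07, and among the 45 pairs of the 10 genes the next closest were GCLM with SRXN1 (0.12) and GCLM with TXNRD1 (0.13). MICB, which encodes a stress-induced ligand of the receptor NKG2D, was the nearest gene of GCLM (0.08) and SRXN1 (0.06) and the second of TXNRD1 (0.09). Its FPKM were 9.57, 8.93 and 9.06 in NB4 controls and 13.5, 12.9 and 14.5 with OGP46.

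FTH1, the ferritin heavy chain, was the nearest gene of NQO1 (0.25), followed by AP1S2 (0.26), and FTL, the ferritin light chain, was the nearest of PIR (0.23), followed by OPRL1 (0.26). HMOX1 had no close neighbour. Among its nearest were LGALS3 (0.76), PHLDA2 (0.78), ME1 (0.78) and BTG2 (0.79). OSGIN1 was nearest to KLF6 (0.38) and ZFP36L1 (0.40), GCLC to MTDH and KAT7, KEAP1 to NAPA and CDC37L1, and NFE2L2 to RNF10 and MED20.

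Other parts of the pathway were followed in lists of partners and of further targets. Of 15 partners and regulators of NRF2, 14 were tested in each line. None was called in NB4 (limma, with or without the block), although 7 were higher and 0 lower at an unadjusted p below 0.05, where 27.5% of all genes tested were higher. Their median log2 difference was 0.22, against 0.18 for all genes tested. MAFG, a small MAF partner of NRF2, had 20.7, 18.9 and 20.2 FPKM in NB4 controls and 28.6, 27.2 and 30.2 FPKM with OGP46, and its log2 difference of 0.52 (adjusted p = 0.0299) was below the size asked for. In Kasumi-1 SQSTM1, the autophagy receptor that binds KEAP1, rose from 20.8, 24.4 and 21.6 FPKM to 34.7, 32.7 and 33.5 FPKM. Of all genes tested in Kasumi-1, 0.0169% were called higher without the block. The SQSTM1 groups were well apart, with a log2 difference of 0.59 (SE 0.07, adjusted p = 0.0242), and of 0.53 with median centring, below the size asked for. In NB4, SQSTM1 had a log2 difference of 0.42 (adjusted p = 0.0592).

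NFE2, a relative of NRF2 that also pairs with small MAF proteins, was called lower in Kasumi-1 only with the block. There 0.346% of all genes tested were called lower. NFE2 had a log2 difference of -0.93 (adjusted p = 0.0487, against 0.140 without the block). It went from 0.302, 0.535 and 0.324 FPKM to 0.144, 0.187 and 0.125 FPKM. In NB4 its log2 difference was -0.21 (adjusted p = 0.511). MAFF and PGAM5 had log2 differences of 0.45 and 0.03 in NB4 and of 0.12 and -0.06 in Kasumi-1, none of them called.

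Of 32 further NRF2 target genes, 25 passed the minimum in NB4 and 23 in Kasumi-1. The 7 left out in both lines were GPX2, ABCC3, AKR1B10, AKR1C1, AKR1C2, AKR1C3 and ALDH3A1, and CBR1 and CBR3 were left out in Kasumi-1 only, where CBR1 was listed at 0 in all 3 OGP46 samples. In NB4, FTL, TRIM16 and SLC48A1 rose, against 1.45% of all genes tested, and 0 genes fell, against 0.111%. With the block 7 were called higher, against 5.06% of all genes tested, the others being FTH1, ME1, SLC7A11 and TRIM16L, and PTGR1 was called lower, against 1.15%. The median log2 difference of the list was 0.32 in NB4, against 0.18 for all genes tested.

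SLC48A1, a heme transporter, and TRIM16 rose by 0.78 (adjusted p = 0.0305) and 0.76 (adjusted p = 0.0298). GSR, the glutathione reductase, had a log2 difference of 0.57 (adjusted p = 0.0278), just below the size asked for. With the block and median centring together, FTL, TRIM16, TRIM16L and SLC48A1 were not called, and FTH1, ME1, SLC7A11 and PTGR1 were. Here too the share of all genes called higher in that fit is not given.

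FTH1 had 542, 293 and 413 FPKM in NB4 controls and 1402, 623 and 979.8 FPKM with OGP46. Its groups did not overlap and replicate 2 was again the lowest on both sides. The log2 difference of FTH1 was 1.24 (SE 0.30, adjusted p = 0.0673), and with the block its SE was 0.08 and it was called. FTL had a log2 difference of 0.60 (adjusted p = 0.0299). ME1, a cytosolic enzyme that makes NADPH, and SLC7A11, the cystine importer, had log2 differences of 0.93 and 0.85, with adjusted p of 0.104 and 0.109, or 0.000129 and 0.000589 with the block. In Kasumi-1 none of the 23 genes was called without the block, where 9 were higher and 0 lower at an unadjusted p below 0.05, against 12.0% and 3.65% of all genes tested. FTL and FTH1 were called with the block, at 0.63 and 0.61, against 0.27% of all genes tested that were called higher. In the test between the lines, with the block only, the difference was more positive in NB4 for FTH1 by 0.62 (adjusted p = 0.0268), for GSR by 0.51 (adjusted p = 0.0311), for TRIM16L by 1.15 (adjusted p = 0.0311), for ALAS1, an enzyme of heme synthesis, by 0.55 (adjusted p = 0.0337), and for NFE2 by 0.72 (adjusted p = 0.0435, limma). With the block and median centring together, GSR and ALAS1 remained past the threshold and the adjusted p of FTH1, TRIM16L and NFE2 lay between 0.0752 and 0.0970. FTH1 and FTL have many processed copies in the genome, and TRIM16 and TRIM16L are close copies, so their values may share reads.

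**Figure D5:**
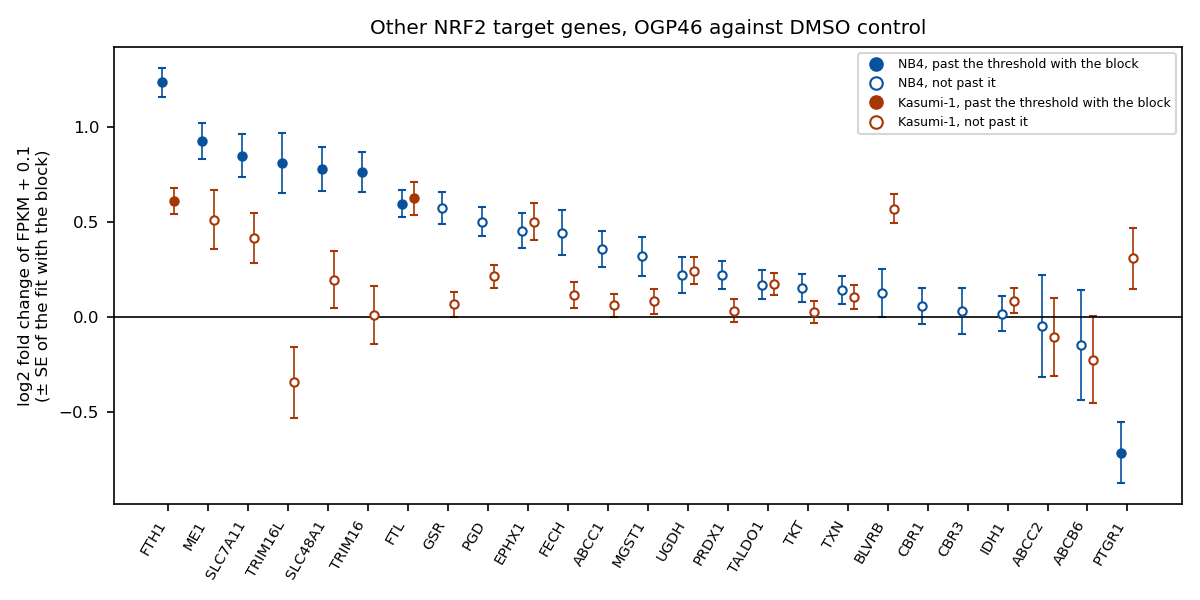
Log2 fold change of FPKM + 0.1 with OGP46 against DMSO control (± SE of the fit with the replicate block) for the 25 further NRF2 target genes tested in NB4 and the 23 tested in Kasumi-1, ordered by NB4. Filled points passed the threshold with the block, which 8 genes did in NB4 and 2 in Kasumi-1, and the points of TRIM16L and PTGR1 lie on opposite sides of 0 in the lines.

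Genes of heme and iron handling beside HMOX1 were also listed. Of these 10, which shares FTL, FTH1, BLVRB and FECH with the target list, FTL rose in NB4, with FTH1 added by the block, and 0 fell, beside the same shares of all genes tested as above. In Kasumi-1, 0 of the 10 were called without the block (limma). At an unadjusted p below 0.05, 3 were higher and 1 lower, against 12.0% and 3.65% of all genes tested. FTL and FTH1 were called with the block, against 0.27% of all genes tested that were called higher. HMOX2, the constitutive heme oxygenase, had 12.3, 10.2 and 12.2 FPKM in NB4 controls and between 9.53 and 11.5 FPKM with OGP46, which overlap. Its log2 difference was -0.12 in NB4 and -0.09 in Kasumi-1. BLVRA, the biliverdin reductase, and SLC40A1, the iron exporter ferroportin, had log2 differences of 0.47 and -0.37 in NB4, with adjusted p of 0.392 and 0.667, and SLC40A1 was called lower with the block and median centring together (adjusted p = 0.0312).

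Markers of myeloid cell types differed in NB4 beside these genes. Of 10 monocyte and macrophage markers, 8 were tested in NB4, CD68, ITGAM, ITGAX and C5AR1 were called higher, against 1.45% of all genes tested, and CD14 and CSF1R were added by the block, against 5.06%. The other markers tested, LYZ and FCGR1A, were not called and their groups overlapped. FCGR1A had 3.04, 1.57 and 1.99 FPKM in NB4 controls and 2.87, 1.72 and 3.20 FPKM with OGP46. LYZ had 391, 270 and 294 FPKM in NB4 controls and 314, 262 and 367 FPKM with OGP46. CD163 was at 0.00 FPKM when rounded in every NB4 sample and so was MRC1. LYZ made up most of the summed level, which was between 287 and 410 FPKM in NB4 controls and between 291 and 398 FPKM with OGP46. In Kasumi-1, 0 of the 6 markers tested were called with or without the block, and the sums were between 48.0 and 67.0 FPKM in controls and between 61.5 and 70.5 FPKM with OGP46. Of the 6 promyelocyte genes listed for NB4, 0 were called in this line without the block (limma). At an unadjusted p below 0.05, 2 were lower, against 1.61% of all genes tested. CTSG, ELANE, AZU1 and PRTN3, which encode granule proteases and a related protein, were called lower with the block, against 1.15% of all genes tested. ELANE had 0.504, 3.30 and 14.5 FPKM in NB4 controls 1 to 3 and 0.321, 0.430 and 1.39 FPKM with OGP46. Control 3, the highest for ELANE, also had the highest sum of Kasumi-1 markers, and ELANE lay between 1352 and 1717 FPKM in Kasumi-1 controls. A link between these was not tested. In CTSG, AZU1 and PRTN3 the highest control was replicate 2. The median log2 difference of the 6 genes was -0.99 in NB4 and -0.33 in Kasumi-1. In Kasumi-1, 0 were called with or without the block. At an unadjusted p below 0.05, 3 were lower there, against 3.65% of all genes tested. The summed level of these 6 genes was between 2612 and 3952 FPKM in NB4 controls and between 1590.4 and 2820.0 FPKM with OGP46. The part of such shifts in the NRF2 target differences was not tested. In GENCODE release 29, NQO1, GCLC, SRXN1, OSGIN1 and NFE2L2 share exon bases with other annotated genes, and whether the counting used strand is not stated, so their values may include reads of those genes.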

How the data were processed

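The authors deposited 1 FPKM value per gene symbol and sample for 12 samples of poly(A) mRNA. The submitters' processing notes name Trimmomatic, HISAT2, Cufflinks, HTSeq and hg38, without roles or versions. Of the deposited values, 632 lay above 0 and below 1e-04, and the depth is unknown. Symbols turned into dates (27 per sample) were left out. The members and gene lists were chosen with earlier results of these data known.

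Genes that averaged 0.1 FPKM or more in the samples of a fit were compared on log2(FPKM + 0.1) with limma 3.58.1 in R 4.3.3, with a mean-variance trend and Benjamini-Hochberg adjustment over all genes tested. A call needed an adjusted p below 0.05 and a log2 difference of at least 0.58. The difference between the lines was an interaction term, called at the adjusted p alone. No pairing is named in the methods, so the fits have no block. The replicate number was then added as a block, because same-numbered samples deviated together in every pair (r between 0.197 and 0.622 in NB4 and between 0.157 and 0.395 in Kasumi-1, over all genes tested), a pairing taken from the sample titles and these correlations. In NB4, OGP46 replicate 3 also correlated with control 1 (r = 0.224, against 0.197 with control 3), and OGP46 replicate 1 with control 3 (r = 0.175). Alternatives were other pseudocounts, filters and scalings, the block, and each sample left out. The block with each pair left out was chosen after seeing the data. The fits were tested on simulated data. Named besides the 10 genes were list genes called in any fit, the extremes of each list, and the genes most like each of the 10. CD34, KIT and other markers were named as list members. One gene of the target list and one gene like HMOX1 are not reported here.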

Additional observations from a re-analysis of the deposited data

Results flagged for a closer look

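In 3 genes of the lists every OGP46 sample of one line lay above its same-numbered control and every one of the other line below it. TRIM16L was higher in NB4 (pairwise FPKM ratios 1.60 to 2.44) and lower in Kasumi-1 (0.611 to 0.822). The difference between the lines was 1.15 on the log2 scale (SE 0.28, adjusted p = 0.174 by limma, or 0.0311 with the replicate block). TRIM16L was low in Kasumi-1, between 0.382 and 0.431 FPKM in controls and between 0.234 and 0.341 FPKM with OGP46. PTGR1, a reductase of prostaglandins and of alkenals, was lower in NB4 (0.535 to 0.623) and higher in Kasumi-1 (1.03 to 1.84), with a difference of -1.02 (SE 0.44, adjusted p = 0.432, or 0.0538 with the block). ALAS1, the first enzyme of heme synthesis, was higher in NB4 (1.13 to 1.35) and lower in Kasumi-1 (0.773 to 0.941), with a difference of 0.55 (SE 0.12, adjusted p = 0.145, or 0.0337 with the block).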

How the results depend on the processing

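The direction of HMOX1, NQO1, GCLM, TXNRD1, SRXN1, OSGIN1, PIR and NFE2L2 with OGP46 was the same in both lines under every alternative. In NB4, the 170 genes called higher and 13 called lower became 111 and 6 with a pseudocount of 1, 4 and 0 with no filter, 0 and 0 with TPM scaling or median centring, and 595 and 135 with the replicate block, and 7 were lower with a minimum of 1 FPKM and 203 with the block and median centring. The 4 of the 10 genes called higher became 0 with no filter, TPM scaling or median centring. In Kasumi-1, the 2 and 2 became 0 higher with a pseudocount of 1, 0 and 0 with no filter, 13 and 11 with a minimum of 1 FPKM, 13 and 5 with TPM scaling, 4 and 14 with median centring, 32 and 41 with the block, and 26 and 67 with both. Of the 10 genes, 1 was called with a minimum of 1 FPKM, 1 (PIR) with median centring, and 3 with the block, with or without centring. Between the lines' differences, 14 genes were called higher with a pseudocount of 1, 223 higher and 14 lower with the block, and 97 and 47 with block and centring. Between controls, 1 of the 10 genes was lower with TPM scaling, median centring, or centring with the block. The block changed no other call of the 10 genes than those given.

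With median centring, with or without the block, the log2 difference in NB4 was -0.034 for GCLC, -0.12 for KEAP1 and -0.19 for PGAM5, in Kasumi-1 -0.000139 for GSR and -0.056 for TRIM16, and between the lines -0.058 for GCLC and -0.13 for KEAP1. With TPM scaling it was -0.021 for KEAP1 and -0.10 for PGAM5 in NB4, and -0.052 for GCLC and -0.13 for KEAP1 between the lines. The cause was not tested. With 1 sample or 1 pair left out, calls ranged from 0 to 708 higher and 0 to 170 lower in NB4, with 0 to 6 of the 10 genes, from 0 to 69 higher and 0 to 88 lower in Kasumi-1, with 0 to 4. With 1 sample left out they ranged from 0 to 1 in each direction between the lines, and from 1 to 3 of the 10 genes were lower between controls. With 1 sample or 1 pair left out, the log2 difference in NB4 ran from -0.044 to 0.12 for PGAM5, -0.47 to 0.30 for ABCB6, -0.95 to 0.16 for SLC40A1 and -0.23 to 0.0060 for HMOX2. In Kasumi-1 it ran from -0.13 to 0.029 for PGAM5, -0.085 to 0.15 for TRIM16, -0.028 to 0.36 for SLC48A1 and -0.32 to 0.057 for BLVRA. With 1 sample left out, the difference between the lines ran from -0.0029 to 0.16 for GCLC and -0.044 to 0.074 for KEAP1. FPKM without counts give no interval for counting error, which matters most for HMOX1 in Kasumi-1 and OSGIN1 in both lines, and these have no value in the lines where a minimum of 1 FPKM left them out.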
